A study of Homo sapiens with 4 samples.

Results

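The 53 genes described here encode the machinery of mitosis: kinases and cyclins of mitotic entry, spindle checkpoint and anaphase regulators, the chromosomal passenger complex and kinetochore, 11 kinesins, spindle and cytokinesis proteins, and proteins of mitotic chromosome structure. They were taken by gene symbol from a list, and all 53 were found among the 19192 genes counted in each of 4 libraries. The libraries come from SW480 cells, a long-established line grown from a human colorectal adenocarcinoma. The knockout-labelled line carries LIN28B overexpression (OE) together with a deletion of IMP1 (IMP1-/-), and the OE-labelled line carries LIN28B overexpression alone, so LIN28B OE is shared by both. LIN28B is an RNA-binding protein that blocks maturation of let-7 microRNAs, and IMP1, encoded by IGF2BP1, binds mRNAs and affects their stability, localisation and translation. Each line gave 1 RNA-seq library of randomly fragmented RNA and 1 library of ribosome footprints, the short mRNA stretches that ribosomes protect from nuclease. Each library was made from 3 pooled culture plates. How the overexpression is driven, and whether the knockout line is 1 clone, is not given in the sources used here. The question put to these genes is how their mRNA, their footprints and the ratio of footprints to RNA differ between the lines.

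Cells enter mitosis when cyclin B and CDK1 become active, a step opened by CDC25 phosphatases and reinforced by the Polo-like and Aurora kinases. Kinesins and microtubule-associated proteins then build the spindle, the checkpoint holds anaphase until kinetochores are attached, and CDC20 with the anaphase-promoting complex (APC/C) triggers the destruction of securin and cyclin B. Most of these genes are transcribed together late in the cell cycle, held silent earlier by the DREAM complex and switched on by MuvB with MYBL2 and FOXM1, through promoter elements called the cell cycle genes homology region (CHR) and the CCAAT box. In a bulk culture, fewer cells in mitosis and less RNA per cell cannot be told apart.

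The promoters of several members that differed between the lines are shown first, chosen because they hold letter matches to these shared elements. Not all members that differed have them: AURKB had no CHR match, and CDC25B had neither match. Each run is 80 bases from upstream of the RefSeq gene start (GRCh38.p14): the last 80 before the start for PLK1, INCENP, HMMR and MKI67, and windows placed further upstream so as to hold the hexamer for CDK1 (211 to 132 bases before the start) and DLGAP5 (159 to 80 bases before). They are printed in the direction of transcription, with matches to the CHR hexamer TTTGAA (on the other strand TTCAAA) and to CCAAT (on the other strand ATTGG) in capitals. In order they lie at chr10:60778120-60778199 (plus strand), chr16:23678809-23678888 (plus), chr11:62123931-62124010 (plus), chr5:163460552-163460631 (plus), chr14:55191665-55191744 (minus) and chr10:128126424-128126503 (minus).
CDK1: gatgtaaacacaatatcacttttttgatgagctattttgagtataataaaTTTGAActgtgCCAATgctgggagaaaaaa
PLK1: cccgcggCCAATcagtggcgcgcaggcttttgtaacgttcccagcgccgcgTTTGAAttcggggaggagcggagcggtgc
INCENP: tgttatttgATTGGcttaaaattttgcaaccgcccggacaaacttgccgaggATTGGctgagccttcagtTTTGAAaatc
HMMR: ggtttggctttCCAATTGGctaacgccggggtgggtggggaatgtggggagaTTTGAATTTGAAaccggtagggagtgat
DLGAP5: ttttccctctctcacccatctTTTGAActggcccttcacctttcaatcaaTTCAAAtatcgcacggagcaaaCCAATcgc
MKI67: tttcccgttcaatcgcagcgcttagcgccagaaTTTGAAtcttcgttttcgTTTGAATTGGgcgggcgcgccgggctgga

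HMMR, DLGAP5 and MKI67 each show 2 CHR hexamers, directly adjoining in HMMR, and in MKI67 and HMMR a hexamer or CCAAT match overlaps ATTGG. DLGAP5 has a further hexamer 3 bases after the start, outside the printed run. Over windows of 300 bases (250 before to 50 after the start), RefSeq's table held 46 of the 53 members, the others being AURKA, FOXM1, BUB3, TTK, UBE2C, BIRC5 and TPX2. The CHR hexamer was found on either strand in 34 of the 46 (73.9%), against 647 of 7531 other genes with measured mRNA (8.59%) and 15.4% of all 27305 promoters of the table. Among genes of DNA replication and S phase it was found in 2 of 46 (4.35%), and among 110 other mitotic genes in 33.6%. The variant TTCGAA was found in 3 members (6.52%) and in 1.65% of other measured genes. CCAAT was found in 34 members (73.9%) and 37.0% of other measured genes, and both elements together in 26 members (56.5%) and 3.57%. In 19 members (41.3%) the hexamer started 1 to 60 bases before the gene start, against 1.42% of other measured genes. A match describes these letters only, and the start of the listed transcript lay within 250 bases of the RefSeq start in 38 of the 46. CDC25B, whose promoter held neither motif, is 1 of the 8 others, its listed transcript starting 8884 bases further into the gene. The listed transcript of CDK1 starts 123 bases after the RefSeq start, and so lies further from the hexamer shown.

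**Figure D1:**
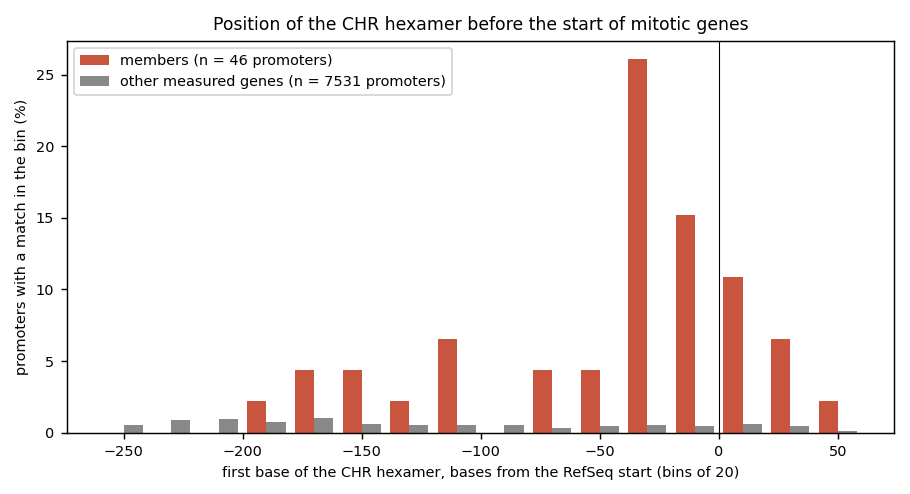
Share of promoters with a CHR hexamer, in bins of distance from the gene start (horizontal axis, bases), for the members in the promoter table and for other measured genes. The members' hexamers gather in the 60 bases before the start, where 41.3% of members and 1.42% of other measured genes have one.

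Library totals were 6813372 (RNA) and 3260262 (footprints) counts in the knockout-labelled line, and 5429224 (RNA) and 2732760 (footprints) in the OE-labelled line. The labelled genotype did not show in the counts: IGF2BP1 stood at 1974 counts in knockout-labelled RNA, against 840 in OE-labelled RNA (log2 ratio 0.79, 95% interval 0.67 to 0.91), and at 821 against 332 footprints. LIN28B, labelled as overexpressed in both lines, stood at 303 counts in knockout-labelled RNA, against 1205 in OE-labelled RNA (log2 ratio -2.43). Which part of IGF2BP1 was deleted is not given in the sources used here. Every direction below is therefore that of a library as labelled. Of 12 colon epithelium markers, KRT20, CDX1, LGALS4, CDH17 and GPA33 were at 0 in all 4 libraries, and the summed level was 4955 scaled counts per 1000000 (CPM) in knockout-labelled RNA, against 10441 CPM in OE-labelled RNA. KRT8 and KRT18 made up 30260 of 35156 of these counts in knockout-labelled RNA and 49125 of 54432 in OE-labelled RNA, and CDH1 lay in the other direction, with 614 counts against 243 (log2 ratio 0.89). Blood cell markers had 0 to 7 counts per library, and 7 markers of fibroblasts, muscle and endothelium had 265 counts in knockout-labelled RNA, against 129 in OE-labelled RNA, with COL1A2 and DCN at 0 in every library. DES made up 156 of the 265 and 101 of the 129 (log2 ratio 0.18). COL1A1 had 55 counts in knockout-labelled RNA, against 2 in OE-labelled RNA, and 57 against 0 footprints. The part of these marker differences in the results below was not tested. Each line has a single library per assay, so there was no replicate check and no test was possible, and the 95% intervals cover counting error only. A member is called higher or lower when its scaled ratio, knockout-labelled over OE-labelled, is at least 1.5-fold.

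All 53 members reached a mean of 50 counts in both assays, so none was lost to the filter. Their counts ran from 129 to 2364 in knockout-labelled RNA, against 82 to 2464 in OE-labelled RNA, and from 62 to 2371 knockout-labelled footprints, against 42 to 1918 OE-labelled footprints. Their summed level was 4724 CPM in knockout-labelled RNA, against 4477 CPM in OE-labelled RNA, and 7841 against 7362 CPM in footprints. The machinery as a whole thus stood at a similar scaled level in both lines, while single members differed in both directions. Unscaled, the members held 33519 of 6813372 RNA counts in the knockout-labelled line and 23338 of 5429224 in the OE-labelled line.

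In mRNA, 6 members were higher in the knockout-labelled line (AURKB, CDK1, TPX2, HMMR, INCENP and MKI67), where 10.5% of all 9855 measured genes were, and 1 was lower (CDC25B), where again 10.5% of all genes were. The share higher is near that of all genes, and none of the 53 passed 2-fold, against 2.99% of all genes higher and 3.49% lower. The median log2 ratio was 0.16 over members and 0.01 over all measured genes. The counting interval lay above 0 for 22 members (28.5% of all genes), below 0 for 7 (27.3%) and across 0 for 24.

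In footprints, 5 members were higher (MKI67, DLGAP5, TPX2, AURKB and KIFC1; 15.0% of 7323 genes) and 4 were lower (NDC80, PLK1, FOXM1 and CDC25B; 14.0% of genes). Both counts are shares below those of all genes. MKI67 was the 1 member past 2-fold, against 4.66% of all genes higher and 4.44% lower, and the median was 0.07, against 0.02 over all genes. The counting interval lay above 0 for 15 members (29.9% of all genes) and below 0 for 13 (27.4%).

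**Figure D2:**
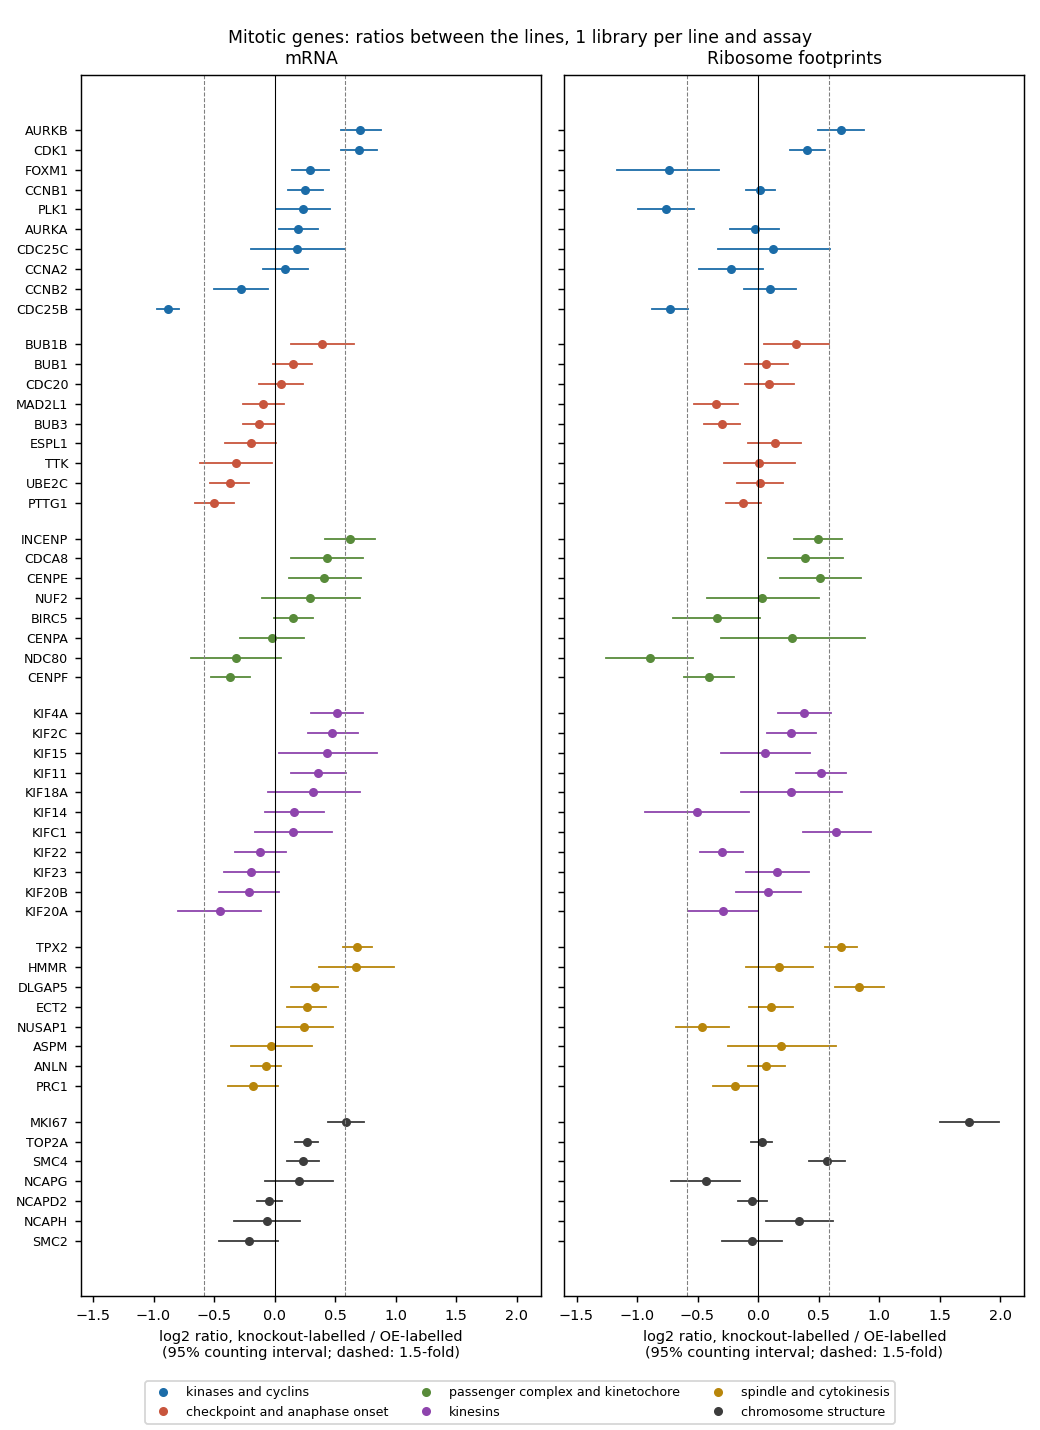
The log2 ratio of each member, knockout-labelled over OE-labelled, in mRNA and in footprints, grouped by role, with 95% counting intervals as bars and dashed lines at 1.5-fold. Most members lie within 1.5-fold of 0 in both assays, and the footprint point of MKI67 (1.74) stands apart from the rest.

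Among the 10 kinases, cyclins and regulators of mitotic entry, 2 mRNAs were higher and 1 lower, while 1 was higher and 3 were lower in footprints. CDK1, the kinase that drives mitotic entry (chromosome 10, 60778454 to 60794852, GRCh38), had 168 CPM in knockout-labelled RNA, against 103 CPM in OE-labelled RNA, and 305 against 230 CPM in footprints. Its mRNA was 1.62-fold higher (log2 ratio 0.70, 0.55 to 0.85), while its footprint ratio of 0.41 (0.26 to 0.55) stayed under the threshold. CCNB1, the cyclin B1 subunit of that kinase, had 143 CPM in knockout-labelled RNA, against 120 CPM in OE-labelled RNA, and 395 against 390 CPM in footprints, close to equal in the second assay (0.02, -0.10 to 0.14). CCNA2 and CCNB2, the other cyclins, had mRNA ratios of 0.09 and -0.28 and footprint ratios of -0.22 and 0.10. No cyclin passed 1.5-fold in either assay.

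The CDC25 phosphatases remove the inhibitory phosphates of CDK1. CDC25B (chromosome 20, 3795835 to 3806118) had 257 CPM in knockout-labelled RNA, against 473 CPM in OE-labelled RNA, and 196 against 324 CPM in footprints. It was 1.84-fold lower in mRNA (-0.88, -0.97 to -0.79) and 1.65-fold lower in footprints (-0.72, -0.87 to -0.58), so the knockout-labelled library was the low one in both assays. Of the 53 members it alone was lower in both. CDC25C stood at 0.19 and 0.13, with intervals that cross 0.

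AURKB, the Aurora kinase of the passenger complex (chromosome 17, 8204773 to 8210598), had 136 CPM in knockout-labelled RNA, against 83.1 CPM in OE-labelled RNA, and 207 against 129 CPM in footprints. Its ratios of 0.71 (0.54 to 0.88) and 0.68 (0.49 to 0.87) were nearly alike. The 40 genes nearest to AURKB had medians of 0.30 in mRNA and 0.60 in footprints, and with these subtracted AURKB stood at 0.41 and 0.09, under the threshold in both. AURKA, the Aurora kinase of centrosomes and spindle poles, had 119 CPM in knockout-labelled RNA, against 103 CPM in OE-labelled RNA, and 134 against 137 CPM in footprints (0.20 and -0.03).

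PLK1, the Polo-like kinase needed for spindle assembly and cytokinesis (chromosome 16, 23678822 to 23690367), had 427 RNA counts in the knockout-labelled line, against 267 in the OE-labelled line, and 272 against 380 footprint counts. The scaled values were 60.2 against 51.2 CPM in RNA and 82.8 against 140 CPM in footprints. The mRNA ratio was 0.23 (0.01 to 0.46) and the footprint ratio -0.76 (-0.99 to -0.53), 1.69-fold lower. FOXM1, the transcription factor that activates late cell cycle genes (chromosome 12, 2857684 to 2876941), had 919 RNA counts in the knockout-labelled line, against 550 in the OE-labelled line, and 84 against 116 footprint counts. Its ratios were 0.30 (0.14 to 0.45) in mRNA and -0.74 (-1.16 to -0.32) in footprints. Both genes thus had a higher scaled RNA level and a lower scaled footprint level in the knockout-labelled line. PLK1 shares exon bases with ERN2 and FOXM1 with ITFG2 on the opposite strand, and as the counting strand is not given in the sources used here, such reads cannot be told apart.

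No checkpoint or anaphase gene passed 1.5-fold in either assay, and the 9 had medians of -0.13 in mRNA and 0.02 in footprints. The checkpoint kinases and their partners spanned small differences: BUB1B, the BubR1 subunit of the mitotic checkpoint complex, stood highest (0.40 and 0.31), and TTK, which starts checkpoint signalling at kinetochores, stood at -0.32 and 0.01. BUB1 had ratios of 0.15 and 0.07, BUB3 of -0.13 and -0.30, and MAD2L1, the Mad2 protein that holds CDC20, of -0.09 and -0.35. CDC20, the activator of APC/C, had 86.7 CPM in knockout-labelled RNA, against 83.4 CPM in OE-labelled RNA, and 140 against 131 CPM in footprints. PTTG1, the securin that blocks separase, had 86.5 CPM in knockout-labelled RNA, against 122 CPM in OE-labelled RNA, and 262 against 284 CPM in footprints. Its mRNA ratio of -0.50 (-0.66 to -0.34) was the lowest of the group. UBE2C, the ubiquitin-conjugating enzyme of APC/C, followed at -0.37 in mRNA and 0.02 in footprints, and the separase ESPL1 stood at -0.20 and 0.14. UBE2C has 4 named pseudogenes and PTTG1 has close copies, so their counts are uncertain where reads were shared.

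In the passenger complex and kinetochore group of 8, 1 mRNA was higher and 1 gene was lower in footprints. INCENP, the scaffold of the passenger complex (chromosome 11, 62123998 to 62152752), had 83.6 CPM in knockout-labelled RNA, against 54.3 CPM in OE-labelled RNA, and 178 against 126 CPM in footprints. Its ratios were 0.62 (0.42 to 0.83) and 0.49 (0.30 to 0.69). CDCA8, the borealin subunit, stood at 0.43 and 0.39. BIRC5, the survivin subunit, had 111 CPM in knockout-labelled RNA, against 100.1 CPM in OE-labelled RNA, and 39.0 against 49.4 CPM in footprints (0.15 and -0.34). Of the complex, AURKB alone was called in both assays, INCENP in mRNA, and CDCA8 and BIRC5 in neither.

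NDC80, a microtubule-binding subunit of the outer kinetochore (chromosome 18, 2571511 to 2616635), had 18.2 CPM in knockout-labelled RNA, against 22.6 CPM in OE-labelled RNA, and 32.9 against 61.2 CPM in footprints. Its footprints were 1.86-fold lower (-0.89, -1.26 to -0.54), while its mRNA interval crosses 0 (-0.32, -0.69 to 0.06). Its partner NUF2 stood at 0.30 and 0.04. CENPE, a kinetochore motor, had 0.41 and 0.51, CENPF, a large kinetochore protein of late cell cycle stages, -0.37 and -0.40, and CENPA, the histone variant of centromeres, -0.02 and 0.28. The footprint counts of CENPA, 62 in the knockout-labelled line against 42 in the OE-labelled line, were the lowest of all members.

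Of the 11 kinesins, none passed 1.5-fold in mRNA and KIFC1 was higher in footprints. KIFC1, a minus-end motor that focuses spindle poles (chromosome 6, 33391536 to 33409924), had 29.7 CPM in knockout-labelled RNA, against 26.7 CPM in OE-labelled RNA, and 94.1 against 60.1 CPM in footprints (0.64, 0.37 to 0.93). Its mRNA ratio was 0.16 (-0.16 to 0.48). KIF11, the motor that pushes spindle poles apart, stood at 0.36 and 0.52, the chromokinesin KIF4A at 0.51 and 0.38, and the microtubule depolymerase KIF2C at 0.48 and 0.27. KIF15 and KIF18A had mRNA ratios of 0.43 and 0.32 and footprint ratios of 0.06 and 0.27. On the other side, KIF20A, which acts in cytokinesis, stood at -0.45 and -0.29 and the chromokinesin KIF22 at -0.12 and -0.30. KIF23, a subunit of centralspindlin, and KIF20B had negative mRNA ratios (-0.19 and -0.21) beside footprint ratios of 0.16 and 0.08. KIF14, a cytokinesis motor, had 49.7 CPM in knockout-labelled RNA, against 44.5 CPM in OE-labelled RNA, and 26.8 against 38.0 CPM in footprints (0.16 and -0.50).

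Among the 8 spindle and cytokinesis proteins, 2 were higher in mRNA and 2 in footprints. TPX2, which activates AURKA on spindle microtubules (chromosome 20, 31739271 to 31801805), had 263 CPM in knockout-labelled RNA, against 164 CPM in OE-labelled RNA, and 435 against 271 CPM in footprints. It was 1.61-fold higher in each assay (0.68, 0.57 to 0.80, and 0.69, 0.56 to 0.82). HMMR, a spindle pole protein (chromosome 5, 163460657 to 163491941), had 39.7 CPM in knockout-labelled RNA, against 24.9 CPM in OE-labelled RNA, and 79.2 against 70.1 CPM in footprints. HMMR was thus higher in mRNA (0.67, 0.37 to 0.98) with a footprint interval across 0 (0.18, -0.10 to 0.45). It shares exon bases with HMMR-AS1 on the opposite strand.

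DLGAP5, a spindle assembly factor (chromosome 14, 55148136 to 55191678), had 83.3 CPM in knockout-labelled RNA, against 66.2 CPM in OE-labelled RNA, and 199 against 111 CPM in footprints. It was 1.78-fold higher in footprints (0.83, 0.64 to 1.04), with a smaller mRNA ratio of 0.33 (0.14 to 0.53). The 40 genes nearest to it had medians of 0.38 in mRNA and 0.31 in footprints, which leaves -0.05 and 0.52. A pseudogene, DLGAP5P1, is named for DLGAP5. NUSAP1, which bundles spindle microtubules, had 55.0 CPM in knockout-labelled RNA, against 46.4 CPM in OE-labelled RNA, and 101 against 139 CPM in footprints (0.24 and -0.46). ECT2, the exchange factor that switches on RhoA at the division plane, stood at 0.27 and 0.11, the midzone bundler PRC1 at -0.18 and -0.19, the contractile ring scaffold ANLN at -0.07 and 0.07 and the spindle pole protein ASPM at -0.03 and 0.19.

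MKI67 had the largest footprint ratio of the 53. It encodes Ki-67, the proliferation marker that coats mitotic chromosomes (chromosome 10, 128096659 to 128126385). It had 1166 RNA counts in the knockout-labelled line, against 569 in the OE-labelled line, and 693 against 171 footprint counts. In scaled terms this was 164 against 109 CPM in RNA, 1.5-fold higher (0.59, 0.44 to 0.74), and 211 against 63.0 CPM in footprints, 3.34-fold higher (1.74, 1.5 to 1.99). The knockout-labelled library was the high one in both assays, by more in footprints than in mRNA. One pseudogene, MKI67P1, is named for it.

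The other chromosome structure genes did not pass 1.5-fold. TOP2A, the topoisomerase that untangles sister chromatids, had 333 CPM in knockout-labelled RNA, against 277 CPM in OE-labelled RNA, and 722 against 707 CPM in footprints (0.26, 0.17 to 0.36, and 0.03, -0.06 to 0.12). SMC4, a core condensin subunit, stood at 0.23 in mRNA and 0.57 in footprints (0.42 to 0.72), just under the threshold. Its partner SMC2 stood at -0.215 in mRNA, the lowest of this group, and at -0.05 in footprints. The condensin I subunits had mRNA ratios of -0.05 (NCAPD2), -0.06 (NCAPH) and 0.20 (NCAPG), and footprint ratios of -0.05, 0.34 and -0.43 in the same order. NCAPG has named pseudogenes and shares exon bases with LCORL on the opposite strand.

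**Figure D3:**
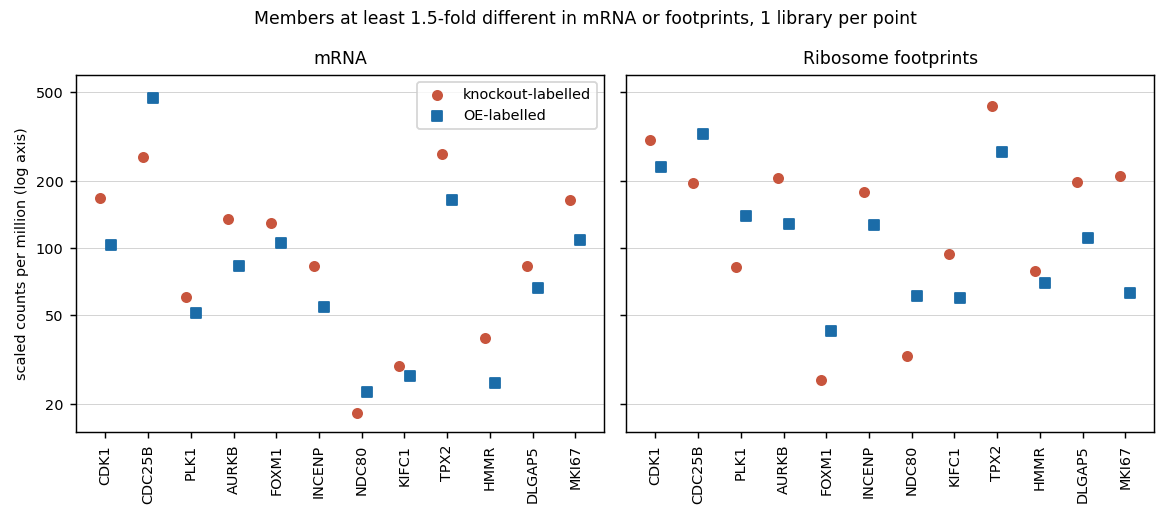
Scaled level (CPM, log axis) of the members past 1.5-fold in mRNA or footprints, knockout-labelled left of OE-labelled, with RNA and footprints in separate panels. MKI67 has the widest gap in footprints, 211 CPM against 63.0 CPM, and CDC25B is lower in the knockout-labelled line in both panels.

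Set side by side, the assays' log2 ratios were both above 0 in 24 members and both below 0 in 11. They were above 0 in mRNA and below 0 in footprints in 8, and the reverse in 10. The sign was shared in 66.0% of members, against 63.7% of all genes measured in both assays. Across the 53 genes, which share the same 4 libraries and are not independent replicates, Spearman's rho between the assays was 0.58 and Pearson's r 0.55, against 0.41 and 0.51 over 7260 genes. AURKB, TPX2 and MKI67 were called higher in both assays and CDC25B lower in both. Called in footprints only were DLGAP5 and KIFC1, higher, and NDC80, PLK1 and FOXM1, lower. CDK1, HMMR and INCENP were called in mRNA only. Between the assays PLK1 differed 1.99-fold and FOXM1 2.05-fold, and the other 6 of these 8 by less than 1.5-fold.

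**Figure D4:**
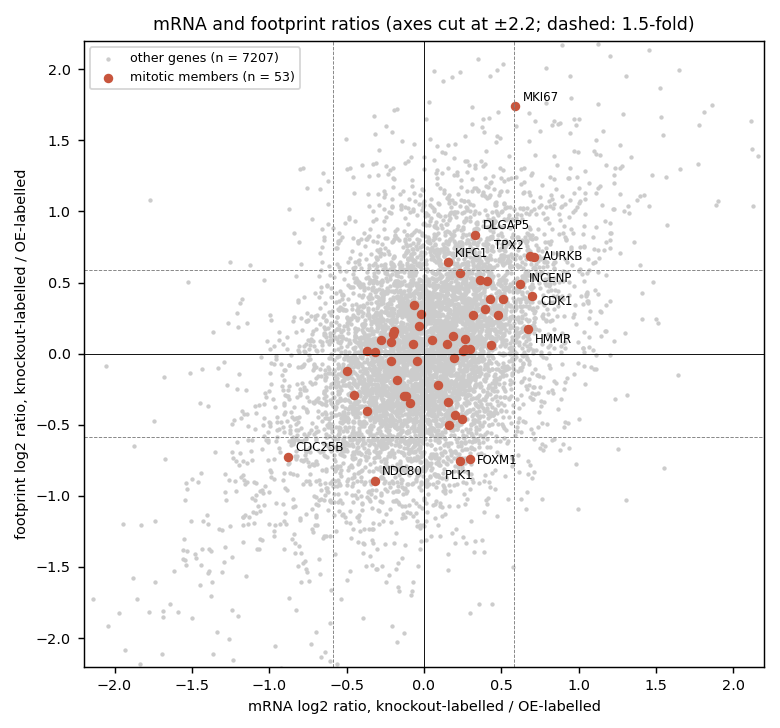
Footprint log2 ratio (vertical) against mRNA log2 ratio (horizontal), knockout-labelled over OE-labelled, for the 53 members over all 7260 genes measured in both assays, with lines at 1.5-fold. AURKB and TPX2 lie near the diagonal, MKI67 lies above it, and PLK1 and FOXM1 lie below it with mRNA ratios above 0.

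That difference, the footprint ratio over the mRNA ratio, is the ratio of translational efficiencies of the lines. By it 1 member was higher in the knockout-labelled line, where 13.4% of 7260 genes were, and 5 were lower, where 12.9% were. The median was -0.04. MKI67 was 2.22-fold higher (1.15, 0.87 to 1.43) and FOXM1 2.05-fold lower (-1.03, -1.47 to -0.60), the 2 members past 2-fold (3.65% of all genes higher, 3.6% lower). PLK1 was 1.99-fold lower (-0.99, -1.30 to -0.68), NUSAP1 1.63-fold (-0.70, -1.02 to -0.39), KIF14 1.58-fold (-0.66, -1.14 to -0.19) and NCAPG 1.55-fold (-0.64, -1.02 to -0.25). The 5 lower genes have roles in transcription, spindle, cytokinesis and condensation, and no role group held more than 2 of them.

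Within each line, footprints over RNA gives how densely an mRNA's reads are matched by ribosome footprints, here set to 0 for the median of all genes. In the knockout-labelled line 27 members were at least 1.5-fold above the median gene (24.9% of all genes) and 5 at least 1.5-fold below it (29.7%), with a members' median of 0.60. In the OE-labelled line 25 were above (24.1% of all genes) and 5 below (28.7%), with a median of 0.56. Above 0 were 46 members in the knockout-labelled line and 45 in the OE-labelled line, and the rank order was largely shared between lines (rho 0.73 over 53 genes; 0.82 over all genes). The share of members above 1.5-fold was higher than that of all genes in both lines, and the share below was lower. The size depended on the filter, which moves the median gene set to 0. With a minimum count of 200, 8 of 38 members were at least 1.5-fold above in the knockout-labelled line (median 0.30). In the OE-labelled line 13 of 38 were (median 0.27). With a minimum of 10 the medians were 0.83 and 0.77. The share of all genes above 1.5-fold at these minimums is not given here. Whether the members' share still exceeds it at a minimum of 200 therefore cannot be read from these counts.

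Of the kinesins, 9 of 11 were at least 1.5-fold above the median gene in the knockout-labelled line (24.9% of all genes) and 7 of 11 in the OE-labelled line (24.1%). With footprints per coding length and RNA per transcript length these were 3 of 11 (median 0.04) and 1 of 11 (median 0.36), against 26.8% of all genes in each line. KIFC1 (1.43 in the knockout-labelled line, 0.96 in the OE-labelled line), KIF20A (1.39 and 1.25), KIF22 (1.19 and 1.39) and KIF11 (1.11 and 0.97) were among the highest, with PTTG1 (1.36 and 1.00) and CCNB1 (1.23 and 1.49). All 9 checkpoint genes lay above the median gene in both lines, where 3630 of 7260 genes lie by definition. By the same per-length measure, 5 of the 9 lay above it in the knockout-labelled line (median 0.19). In the OE-labelled line 4 did (median -0.10). At the other end, as counted, stood FOXM1 (-2.57 in the knockout-labelled line, -1.51 in the OE-labelled line), BIRC5 (-1.75 and -1.23), CENPA (-1.30 and -1.59) and, in the knockout-labelled line, KIF14 (-1.12, against -0.44 in the OE-labelled line). FOXM1 had the value at percentile 1.94 of all genes in the knockout-labelled line and 8.79 in the OE-labelled line. MKI67 lay near the median gene in the knockout-labelled line (0.13) and well below it in the OE-labelled line (-1.0), while PLK1 stood at 0.23 against 1.24 and NUSAP1 at 0.64 against 1.36.

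Footprints come from the coding part of an mRNA and RNA fragments from its whole length, and the members differ from other genes in this respect. The coding part made up a median of 75.6% of the listed transcript in members, against 54.4% over 7252 genes, and the 3'UTR had a median of 580 bases, against 889.5. Over all genes, footprints over RNA correlated with the coding share (rho 0.27 in the knockout-labelled line, 0.30 in the OE-labelled line) and inversely with the length of the 3'UTR (-0.47 and -0.44). With footprints taken per coding length and RNA per transcript length, a calculation added after the data were seen, the members' median was 0.03 in the knockout-labelled line and 0.01 in the OE-labelled line. By this measure 10 members were above 1.5-fold (26.8% of all genes) and 4 below (28.9%) in the knockout-labelled line, and 11 above (26.8%) and 7 below (27.2%) in the OE-labelled line. The high values of the list as a whole are thus not seen per length.

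The per-length measure has a slope of its own, with a rho of -0.44 against the coding share in each line, and which measure fits depends on the counted part of the transcript, which is not given in the sources used here. It placed MAD2L1 (2.65 in the knockout-labelled line, 2.94 in the OE-labelled line) and BUB3 (2.36 and 2.57) highest. Their listed transcripts are mostly 3'UTR, with 615 coding bases of 5468 in MAD2L1 and 984 of 7828 in BUB3. BIRC5, among the lowest members as counted, stood per length at -0.11 in the knockout-labelled line and 0.42 in the OE-labelled line, its coding part being 16.2% of the listed transcript. FOXM1 was the lowest member per length in both lines (-3.03 in the knockout-labelled line, -1.96 in the OE-labelled line). CCNB1 (0.98 and 1.25), PRC1 (1.24 and 1.28), CDCA8 (1.09 and 1.16), PTTG1 (1.19 and 0.84), CDK1 (0.74 and 1.06) and KIF11 (0.73 and 0.61) were at least 1.5-fold above the median gene in both lines by either measure.

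**Figure D5:**
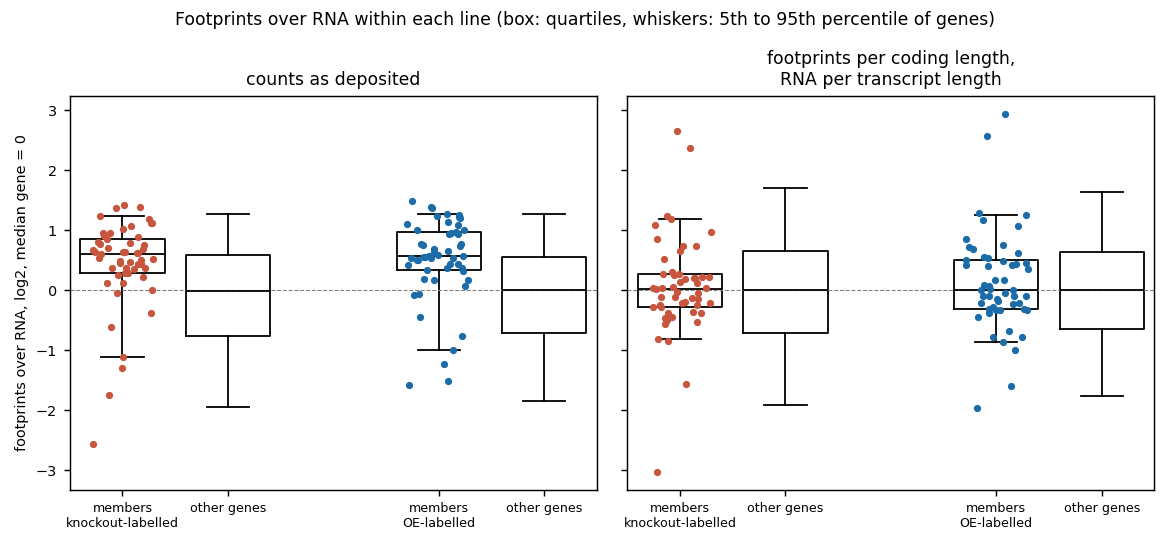
Footprints over RNA of each member (log2, median of all genes at 0) in the knockout-labelled and the OE-labelled line, as counted and per length. The log2 value is on the vertical axis, and boxes for other genes stand beside those of the members. As counted, most members lie above 0 in both lines (medians 0.60 and 0.56), and per length they spread around 0 (0.03 and 0.01).

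Levels of RNA per kilobase of transcript ran from 111 CPM per kilobase for AURKB to 2.28 for ASPM in the knockout-labelled line, and from 142 for UBE2C to 2.33 for ASPM in the OE-labelled line. CDC25B stood second in the OE-labelled line, at 131 CPM per kilobase. In footprints per kilobase of coding sequence, PTTG1 was highest in both lines, with 432 CPM in the knockout-labelled line and 469 CPM in the OE-labelled line. ASPM and MKI67, which have the longest coding sequences of the 53, were at the low end of the OE-labelled footprints with 2.65 and 6.45 CPM per kilobase. CENPE, at 5.51 CPM per kilobase, lay between them.

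A wider list of 132 other mitotic genes, of which 131 were counted, gave the members' setting. In mRNA 7 of 127 measured were higher (5.51%, against 10.5% of all genes) and 11 lower (8.66%, against 10.5%), with a median of -0.02. In footprints 22 of 113 were higher (19.5%, against 15.0% of all genes) and 10 lower (8.85%, against 14.0%), with a median of 0.02. By efficiency 20 of 113 were higher (17.7%, against 13.4%) and 10 lower (8.85%, against 12.9%). The kinetochore genes CENPI (116 RNA counts in the knockout-labelled line, against 49, and 96 against 23 footprints) and CENPW (193 against 84, and 172 against 66) and the MuvB subunit LIN52 were higher in both assays. FAM83D, a spindle protein that positions chromosomes, was lower in both, with 383 RNA counts in the knockout-labelled line, against 447, and 219 against 367 footprints. Among other mitotic kinases and their regulators 6 of 14 were higher in footprints (42.9%, against 15.0% of all genes; median 0.49) and 2 were lower. CKS2, a small CDK-binding subunit, was 1 of them (0.45 in mRNA, 0.89 in footprints), and CKS1B stood at 0.22 and 0.59. Of 14 cohesin and condensin genes 1 was higher and 4 were lower in footprints (28.6%, against 14.0% of all genes; median -0.26). MYBL2, the MYB protein that joins MuvB, stood at 0.26 and -0.04.

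The 53 genes of DNA replication and S phase had a median of -0.07 in mRNA, with 3 of 51 higher (5.88%, against 10.5% of all genes) and 6 lower (11.8%, against 10.5%). In footprints the median was -0.14, with 4 of 50 higher (8.0%, against 15.0%) and 9 lower (18.0%, against 14.0%). ORC6 was higher in both assays, and ORC3, LIG1 and the histone stem-loop binding protein SLBP were among those lower in both, SLBP at -1.07 and -1.37. Their footprints over RNA were also above the median gene (0.45 in the knockout-labelled line, 0.63 in the OE-labelled line), and per length they stood at 0.31 and 0.38. Of the G1 cyclins and CDKs, 1 of 13 measured was higher in mRNA (7.69%, against 10.5%) and 2 were lower (15.4%, against 10.5%). In footprints 1 of 11 was higher (9.09%, against 15.0%) and 3 were lower (27.3%, against 14.0%). The medians were -0.26 in mRNA and -0.22 in footprints. CCND2 stood at -0.07 and 0.13 and CDK4 at -0.14 and 0.28. CCND1, the cyclin D1 that opens the cycle, had 3216 RNA counts in the knockout-labelled line, against 6846 in the OE-labelled line (-1.53, and -1.39 in footprints). The CDK inhibitor CDKN1C was lower (-2.32 and -1.87) and CDKN1A higher (0.59 and 1.24) in both assays. Among the 53 members, the footprint ratio of MKI67 alone was as far from 0 as the CCND1 ratios.

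Members with and without the promoter motif had close medians. The 34 with a CHR hexamer had medians of 0.22 in mRNA and 0.10 in footprints, against 0.12 and 0.04 in the 12 without, and 647 other measured genes with the hexamer had an mRNA median of 0.03, against 0.02 in 6884 without. CDC25B, the 1 member lower in mRNA, lay among those without it. AURKB lay among the 12 too. The listed transcript of CDC25B starts 8884 bases after the RefSeq start, and that of AURKB 373 bases before it. Both starts lie outside the window searched.

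Since LIN28B acts on let-7, matches to the let-7 seed were also read from the listed transcripts' 3'UTRs (GENCODE release 29 on GRCh38). The mature miRNA, from RefSeq, is shown 5' to 3' with its seed (bases 2 to 8) in capitals, above the 4 member sites with the complementary CTACCTC in capitals.
hsa-let-7a-5p: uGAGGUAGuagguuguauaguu
CDC25B: ctgcgccagtcctgCTACCTCc
AURKA: taggaacacgtgctCTACCTCc
ESPL1: gcctcataactgttCTACCTCc
CDCA8: catgtcttgctcttCTACCTCc

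These 4 were 7.55% of members, against 9.45% of 9666 other measured genes. Their mRNA ratios were -0.88 (CDC25B), 0.20 (AURKA), -0.20 (ESPL1) and 0.43 (CDCA8), 2 on each side of 0. Members lay on 18 chromosomes, 7 of them on chromosome 1 and 5 each on chromosomes 5, 10 and 15. After subtraction of the local median over 40 neighbouring genes, INCENP, CDK1, TPX2, HMMR and MKI67 remained higher in mRNA and NCAPG, whose neighbours had a median of -0.48, came to 0.68. In footprints TPX2, MKI67 and KIF11 (0.75) were then above 1.5-fold, and CDC25B, PLK1, FOXM1, NDC80 and KIF14 (-0.68) were lower by at least 1.5-fold.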

How the data were processed

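Per the labels' protocols, footprint libraries held fragments of 18 to 34 nt and RNA libraries fragments of 18 to 50 nt. The linkers carried 4 and 5 random nt, and PCR ran for 15 cycles. The authors deposited raw counts, whole numbers for each gene and 1 listed transcript, per the file headers. The submitters' processing notes list HISAT2 2.1.0, Bowtie 1.1.2, cutadapt 1.10 and GRCh38 without saying what each did. The sources used here do not state the counter, annotation release, strand setting, counted region or handling of the random nt, and intervals are too narrow if PCR copies were counted. The OE-labelled RNA library's cell line field reads SW840 and its source field SW480, and SW480 was used.

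TMM factors (edgeR 4.0.16, R 4.3.3) scaled the counts of each assay, and levels are given as counts per 1000000 (CPM) on that scale. Genes with a mean count of at least 50 in an assay were measured. Log2 ratios had 0.5 added to each count. Their 95% intervals are exact conditional binomial (Clopper-Pearson) intervals, and Wald intervals for efficiency and for footprints over RNA. Lengths and coordinates are those of the listed transcripts in GENCODE release 29 (GRCh38; 19176 of 19192 identifiers found). Promoters and let-7a come from RefSeq tables (GRCh38.p14), and 4 list genes were matched by RefSeq synonym. CENPC, CDKN2A and ACTA2 were not used here. The members and lists were chosen with earlier results of these data known. All members are accounted for: those past 1.5-fold in mRNA or footprints or 2-fold in efficiency, and CDK1, CCNB1, PLK1, AURKA, AURKB, CDC20, TOP2A, BIRC5, FOXM1 and MKI67, have values in all libraries, and of other lists genes called in both assays or of high RNA count are named. One further gene that meets this rule is not reported here. CENPA, CKS2 and the genes named for their footprints over RNA, their level per length or as next to a threshold were chosen after their values were seen. The steps were tested on counts simulated with counting error only, which cannot show variation between replicate libraries. Alternatives were DESeq2 1.42.0 size factors, upper-quartile and total-count scaling, count minimums of 10, 200 or none, 5 added to each count, a 2-fold threshold and subtraction of the median of the 40 nearest genes. Calculations and plots used matplotlib 3.10.9, pandas 2.3.3, scipy 1.17.1 and numpy 2.4.6 under Python 3.11.15.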

Additional observations from a re-analysis of the deposited data

Results flagged for a closer look

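In 3 members the mRNA and footprint ratios lay in opposite directions, with both counting intervals clear of 0. That is 5.66% of the 53 members, against 7.67% of 7260 genes measured in both assays. The difference between the assays has no replicate and was not tested. PLK1 stood at 0.23 (0.01 to 0.46) in mRNA and -0.76 (-0.99 to -0.53) in footprints, an efficiency log2 ratio of -0.99. FOXM1 stood at 0.30 (0.14 to 0.45) and -0.74 (-1.16 to -0.32), an efficiency ratio of -1.03. NUSAP1 stood at 0.24 (0.01 to 0.48) and -0.46 (-0.68 to -0.24), an efficiency ratio of -0.70. The lower bounds of the PLK1 and NUSAP1 mRNA intervals are close to 0.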

How the results depend on the processing

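Under the alternatives, 93 recomputed counts and medians over the members stayed within 1.5 times or within the interval of the median, and 30 did not. Another scaling by total counts shifted the median of all genes to 0.13 in mRNA and -0.10 in efficiency, and the members' mRNA median to 0.28, with 8 members lower in efficiency. At 2-fold, 0 members were higher and 0 lower in mRNA, 1 higher and 0 lower in footprints, and 1 higher and 1 lower in efficiency. At least 2-fold above the median gene in footprints over RNA were 9 (knockout-labelled, 10.5% of all genes) and 13 (OE-labelled, 10.6%). A stricter threshold must give fewer. For counts under total-count scaling, other minimum counts and the nearest genes' median, the shares of all genes are not given here. With the nearest genes' median subtracted, 2 members were lower in mRNA (CDC25B and PTTG1) and 3 higher in footprints. Lower in footprints were then CDC25B (-0.91), PLK1 (-0.89), FOXM1 (-0.75), KIF14 (-0.68) and NDC80 (-0.63). A minimum count of 200 kept 40 members in footprints, 2 of them lower, and 38 in both assays, 3 of them lower in efficiency. Footprints over RNA then had medians of 0.30 (knockout-labelled, 8 at least 1.5-fold above and 2 below) and 0.27 (OE-labelled, 13 above and 2 below), and at a minimum of 10 medians of 0.83 and 0.77. There the median gene that sets 0 changes with the genes kept. Leaving out the 22 members with a pseudogene or shared exon bases, chosen after seeing the data, left 3 higher and 2 lower in footprints, 0 higher and 2 lower in efficiency, and 3 at least 1.5-fold below the median gene in footprints over RNA of the OE-labelled line. Of the called members, that alternative removes MKI67, PLK1, FOXM1, DLGAP5, HMMR and NCAPG. Per length, also added later, the counts and medians of footprints over RNA were 10 and 0.025 (knockout-labelled) and 11 and 0.0091 (OE-labelled), and called values changed sign for BUB1B (-0.11), ESPL1 (-0.031), NDC80 (-0.20), KIF4A (-0.16) and NUSAP1 (-0.054) in the knockout-labelled line and for TTK (-0.10), ESPL1 (-0.33), BIRC5 (0.42) and SMC2 (-0.10) in the OE-labelled line. DESeq2 size factors, upper-quartile scaling, 5 added to each count and no minimum count moved none of these summaries by over 1.5 times, and scaling cancels in footprints over RNA, which is set to the median gene. No paired analysis was possible because each line has 1 library per assay, and for the same reason no library could be left out. Depth limits members of low counts, such as NUF2, CDC25C, CENPA, KIF18A and ASPM, whose mRNA and footprint intervals both cross 0.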
